A study of Mus musculus with 8 samples.

Results

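The regions described here are 3430 CTCF peaks of newborn mouse lens fiber cells that overlapped no CTCF peak of the lens epithelium, lay away from the ends of protein-coding genes and sat at an anchor of a chromatin loop of lens fibers. They were taken from 23132 fiber peaks on chromosomes 1 to 19. Of these, 11576 overlapped no epithelium peak by at least 1 bp, and 10344 of the 11576 had their summit more than 500 bp from every protein-coding gene end of GRCm38. Overlap with an anchor of the fiber loop list then left the 3430 peaks, called fiber-only distal anchor peaks below. The members were thus chosen by measured values, the peak calls of both lens cell types and the fiber loop calls, so their presence in fiber, their lack of an epithelium peak, their distance from genes and their place at an anchor are descriptions and not results.

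CTCF is a zinc finger protein that binds a long, asymmetric DNA motif. Cohesin is thought to extrude chromatin loops until it meets CTCF, and the motifs at the base of such a loop usually point toward each other. In the lens, proliferating cells of the anterior epithelium withdraw from the cell cycle and elongate into fiber cells, which fill with crystallins and later lose their nuclei and organelles.

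CTCF ChIP-seq came from lens epithelium and lens fiber cells of CD-1 mice at postnatal day 0.5, microdissected from 200 lenses. Hi-C came from 30 epithelium or 30 fiber samples per replicate at the same age, and from v6.5 mESC, a wild-type mouse embryonic stem (ES) cell line, in 2 replicates for each cell type. Crosslinking was done with 2.0% formaldehyde over 10 min, in the lens tissue and the ES cells alike. Each peak list belonged to 1 sample, and each loop or TAD list was called on the merged map of both replicates, so no value below has a replicate check. The labels give 6 µg of chromatin and 1 ChIP sample per cell type, whereas the methods of the study give another amount and 2 replicates.

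The 2 peak lists were unequal. The fiber list held 23132 peaks with a median fold enrichment of 6.45 on these chromosomes, and the epithelium list held 15799 with a median of 5.78. Fold enrichment is the signal at the summit over the background that MACS2 estimated. Absence from the epithelium list is therefore not absence of binding there, and a site bound in fewer cells cannot be told apart from a site bound less in every cell. Read depths were not analysed here. The files hold no RNA values, so the purity of both dissections could not be checked against markers. On these chromosomes the loop lists held 7502 loops in fiber, 7840 in epithelium and 8205 in ES cells. Intervals in parentheses are 95% Wilson intervals for shares and exact order-statistic intervals for medians. They cover counting error only, and neighbouring peaks and loops are not independent. Overlapping intervals do not show that the values are alike, and no difference was tested.

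Sequence could be read for 57 of the 3430 peaks, whose summit fell in a 300-base window around a RefSeq gene start, 33 of them at lncRNA genes and 24 at further starts of coding genes. A matrix of 19 positions was learned from 275 such windows holding the summit of a peak shared by both lens cell types, none of them a member of the group. Learning started from GCGCCCCC, the run of 8 bases most over-represented near the summits of these same windows. The consensus, with N where no base prevailed, was NNCCNCNAGGGGGCGCNNN and holds that run in reverse complement, so its core restates the start. Both strands were searched, and the threshold was set so that 1.00% of 29890 windows with no peak of either list matched. A match was found for 25 of the 57 fiber-only distal anchor peaks, or 43.9% (31.8 to 56.7), against 2.55% of all 31356 windows. The interval overlapped that of fiber-only peaks outside the group, with 185 of 605 windows or 30.6% (27 to 34.4), and that of peaks in the epithelium list alone, with 6 of 16 or 37.5% (18.5 to 61.4). Shared distal peaks at loop anchors, some of which had trained the matrix, matched in 33 of 49 windows, or 67.3% (53.4 to 78.8). This share was higher than that of the fiber-only distal anchor peaks. The intervals overlapped only from 53.4 to 56.7, and the difference was not tested. The matched sequences lay close to the summits, with a median distance of 19 bp and 21 of 25 within 50 bp.

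The 8 matches with the highest scores, those that 0.1% of windows with no peak reached, show the motif that these fiber-only peaks carried. They are printed 5′ to 3′ in the direction of the motif from RefSeq (GRCm38.p6), with the matched 19 bases in capitals.
Sec24b, chr3:130060866-130060894, minus strand: gctccGGCCTGCAGGGGGCGCTGGcgcgg
1700028I16Rik, chr10:82811978-82812006, plus strand: tccctGGCCGGCAGGGGGCGCGCGccctc
Fam171a1, chr2:3118277-3118305, plus strand: gcggcGGCCGCCAGGTGGCACCACggacc
Snhg7, chr2:26640316-26640344, minus strand: gaaggAGCCACTAGAGGGCGCGGCactcg
C330018A13Rik, chr5:116123512-116123540, plus strand: agagtTGCCACTAGATGGCGCCATagtta
Csk, chr9:57645687-57645715, minus strand: ccaagGTCCAGCAGAGGGCGCCGAcccac
Pdrg1, chr2:153015471-153015499, minus strand: ttcagAGCCTGTAGGGGGCGCACCtgccc
Slc6a19, chr13:73692644-73692672, minus strand: tccagGGCCAGAAGGGGGAGCTAGctgca

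The direction of these motifs, which played no part in choosing the peaks, followed the side of the loop on which the peak lay. A motif points into its loop when it is on the plus strand at the left anchor or on the minus strand at the right anchor. Of the 25 motifs at fiber-only distal anchor peaks, all at peaks lying on 1 side of their loops, 21 pointed into the loop and 4 pointed out, a share of 84.0% (65.3 to 93.6). Among motifs at shared peaks at anchors, gene ends included, 57 of 63 pointed inward, or 90.5% (80.7 to 95.6), so the intervals overlapped. Over all other fiber peaks at anchors, shared or not, 84 of 100 pointed inward. With the stricter score 7 of 8 fiber-only motifs pointed inward, the exception being that at Snhg7, a small nucleolar RNA host gene. The peak at Csk, which encodes a kinase that restrains Src family kinases, had a fold enrichment of 11.4 and closed a 90 kb loop that was in the ES cell list and not in the epithelium list. At Fam171a1 the fold was 7.83, and its 120 kb loop was in neither list. The peak at Sec24b, a coat protein of secretory vesicles, had a fold of 6.55 and a 150 kb loop that the epithelium list also held. Matches at 57 windows near gene starts say nothing of the other peaks, for which no sequence was read.

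The fiber-only distal anchor peaks were weaker than shared peaks at anchors and stronger than fiber-only peaks elsewhere. Their fold enrichment ran from 1.59 to 13.4, with a median of 6.05 (5.98 to 6.13). The median was 8.39 (8.29 to 8.49) for 4212 shared distal peaks at anchors and 5.48 (5.47 to 5.52) for 6914 fiber-only distal peaks away from anchors. Its quartiles were 5.14 and 7.26, and 10% of its peaks exceeded 8.59. Their median width was 249 bp, against 310 bp for shared peaks at anchors. Fold was not part of the rule, but a weak site is more easily missed in epithelium, and the part of this in the difference was not tested.

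**Figure D1:**
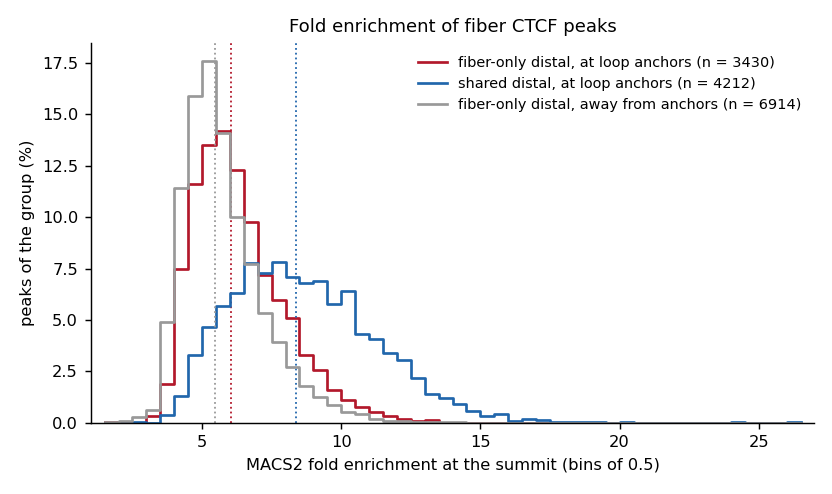
Fold enrichment at the summit in bins of 0.5 (x axis) against the percent of each group of fiber peaks (y axis), with dotted lines at the medians. The fiber-only distal anchor peaks centre at 6.05, between fiber-only peaks away from anchors at 5.48 and shared anchor peaks at 8.39.

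The 10 strongest members had folds of 12.3 to 13.4. The highest, at chr17:87571548-87571989, lay outside coding genes and 64.2 kb from an end of Epcam, which encodes an epithelial adhesion protein. It anchored loops of 250 and 525 kb. Next came the peak inside Pdrg1, whose motif is printed above, with a fold of 13.2 and an 80.0 kb loop. Others lay inside Mon2 (13.1), a regulator of endosome traffic, Kat6a (12.7), a histone acetyltransferase, and Pcdh15 (12.4), a protocadherin of sensory hair cells. A peak of fold 12.5 lay 451 kb from Sox2, a transcription factor of early lens and stem cells, and anchored loops of 440 and 875 kb. Of the 10 peaks, 9 had a loop in the epithelium list, 4 had a loop in the ES cell list and 8 had no epithelium peak anywhere in their anchors. The peak with a loop in neither list was that in Kat6a, whose 175 kb loop held 163 contacts at 1.98 times the expected number.

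Most of these fiber-only peaks had a loop that was also listed in epithelium. For 2327 of the 3430 peaks, or 67.8% (66.3 to 69.4), at least 1 of their fiber loops was in the epithelium list with both anchor midpoints within 10 kb. The share was 67.7% (66.3 to 69.1) for shared distal peaks at anchors, a difference of 0.1 percentage points with overlapping intervals. In the background, 58.3% of all fiber loops were in the epithelium list. A peak can have several loops. Counted by loop, 60% (58.4 to 61.5) of the 3708 loops with a fiber-only distal peak were in the epithelium list. Of the 3794 loops without one, 1213 of which had no fiber peak, 56.8% (55.2 to 58.3) were. Anchors were 25 kb wide in 48.2% of the former and 36.5% of the latter. By width the shares were 88.3% and 83.3% at 5 kb, 68.8% and 61.7% at 10 kb and 45.0% and 36.9% at 25 kb. The intervals were apart at 10 and 25 kb and overlapped at 5 kb.

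The share was lower for the ES cell list. A loop in the ES cell list was present for 1659 peaks, or 48.4% (46.7 to 50). The share was 50.7% (49.2 to 52.2) for shared peaks at anchors. Counted by loop, 39.9% of loops with a fiber-only distal peak were in the ES cell list, against 37.0% of loops without one. By anchor width these were 79.6% and 72.8% at 5 kb, 49.6% and 39.6% at 10 kb and 21.2% and 15.2% at 25 kb. The intervals were apart at 10 and 25 kb and met at 5 kb. Of all fiber loops, 38.5% were in that list. Both lists held a loop of 40.8% of the fiber-only distal anchor peaks, the epithelium list alone 27%, the ES cell list alone 7.55% and neither 24.6%. The share with an epithelium loop ran from 59.7% on chromosome 5 to 75.1% on chromosome 3, and it was above that of shared peaks on 7 of 19 chromosomes.

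The lack of an epithelium peak held for the whole anchor in most cases. The anchors of 2582 peaks, or 75.3%, contained no epithelium peak at all. Of these, 68.5% (66.7 to 70.2) had a loop in the epithelium list. The share was 65.9% (62.7 to 69.0) for members that shared an anchor with an epithelium peak, and the intervals overlapped. A shared CTCF peak lay in the same anchor for 20.5% (19.2 to 21.9) of the group. The nearest epithelium summit was 31.2 kb away at the median, and 97 members had one within 1 kb, the closest at 193 bp.

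Loops were next divided by the peaks at their anchors. In 400 fiber loops, both anchors held fiber-only distal peaks and no epithelium peak, and 64.2% (59.4 to 68.8) of these loops were in the epithelium list. The share was 63.4% (60.1 to 66.7) for 826 loops that had epithelium peaks and no fiber-only peak at both anchors. With a fiber-only distal peak at 1 anchor and no peak at the other, it was 57.4% (54.6 to 60.2) of 1170 loops. It was 64.6% (62.0 to 67.2) of 1315 loops when the other anchor held an epithelium peak. Loops with no peak of either list at either anchor gave 53.2% (50.3 to 56.2) of 1097. Over all anchor widths the share was 53.3% (49.8 to 56.8) in 767 loops where a fiber-only distal peak shared its anchor with an epithelium peak. Of those loops, 63.8% had 25 kb anchors. By anchor width their share was 92.1% at 5 kb, 69.8% at 10 kb and 41.1% at 25 kb. Loops with no peak of either list gave 78.0%, 53.9% and 32.7% at these widths.

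The share differed more between anchor widths, the resolution at which HiCCUPS called a loop, than between kinds of peak. The tolerance of 10 kb is narrower than a 25 kb anchor, so a 25 kb loop shifted by a single bin did not match. Part of the fall with width thus follows from the matching rule, and that part was not measured. Loops with fiber-only distal peaks and no epithelium peak at both anchors were in the epithelium list for 93.1% (83.6 to 97.3) of 58 loops with 5 kb anchors, 70.7% (63.4 to 77.2) of 164 with 10 kb anchors and 48.9% (41.6 to 56.2) of 178 with 25 kb anchors. At each width the interval overlapped that of loops with epithelium peaks and no fiber-only peak at both anchors.

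**Figure D2:**
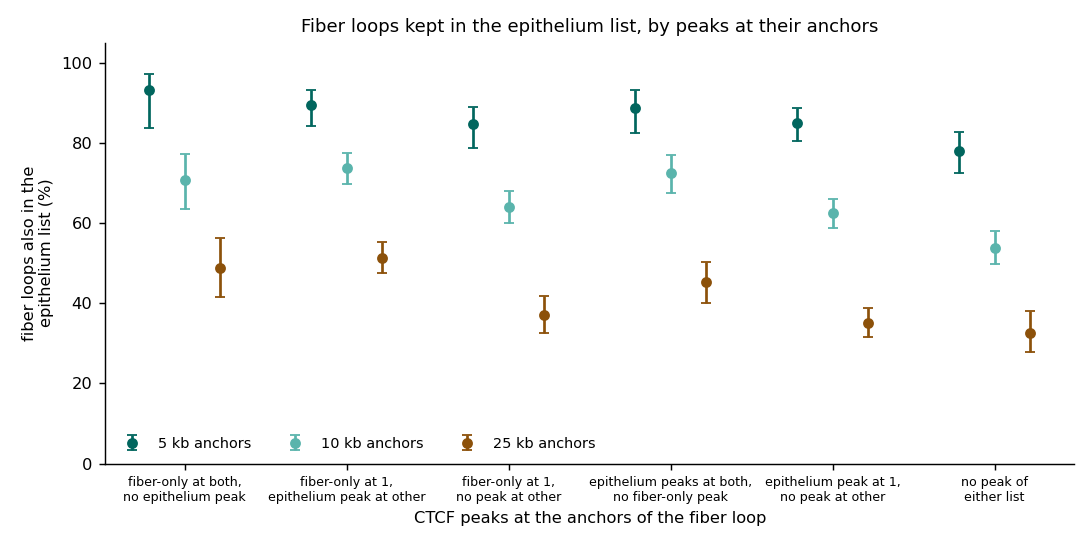
Percent of fiber loops also in the epithelium list (y axis) by the CTCF peaks at their anchors (x axis) and by anchor width (colours), with 95% Wilson intervals. At 25 kb anchors the share is 48.9% for loops with fiber-only peaks and no epithelium peak at both anchors, 45.2% with epithelium peaks and no fiber-only peak at both anchors and 32.7% with no peak.

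The contact strength of loops present in both lists was compared next. For 3212 loops matched at the same anchor width, the ratio of observed to expected contacts was set against its value in epithelium. At 1634 loops with a fiber-only distal peak, the median ratio was 2.98 in fiber and 3.24 in epithelium, and the median log2 difference, fiber over epithelium, was -0.10 (-0.11 to -0.09). It was -0.11 (-0.13 to -0.10) at 1578 loops without one. At 700 loops with a fiber-only distal peak and no epithelium peak at either anchor, it was -0.13 (-0.15 to -0.11), and fiber had the higher ratio at 25.6% of them. The intervals with and without a fiber-only distal peak overlapped. Only loops listed in both cell types at the same width entered, 1634 of the 3708 with a fiber-only distal peak, so these values say nothing of loops too weak in epithelium to be listed there. The merged maps were called separately, with a median of 58.0 observed contacts per matched loop in fiber and 48.0 in epithelium.

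**Figure D3:**
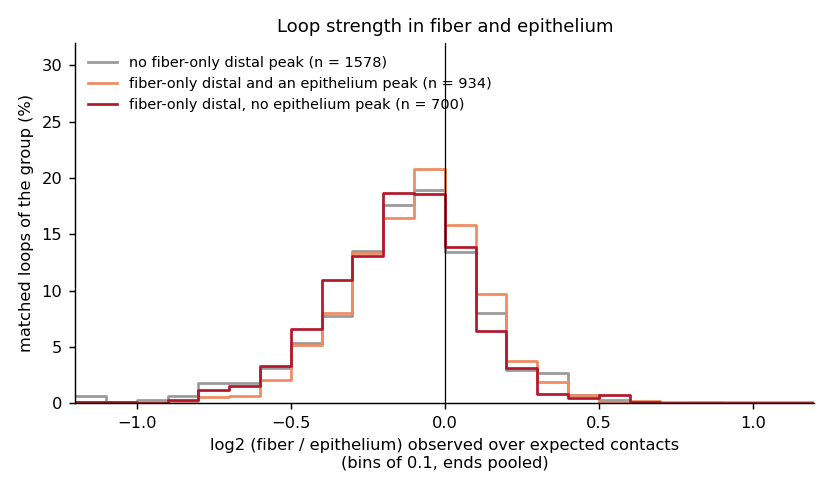
Log2 ratio of observed over expected contacts in fiber to that in epithelium (x axis, bins of 0.1, values past the ends pooled into the outer bins) against the percent of matched loops in each group (y axis). The 3 distributions lie mostly left of 0, with medians of -0.13 for loops with a fiber-only distal peak and no epithelium peak and -0.11 for loops with no such fiber-only peak.

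Fiber-only distal peaks were found at the loop anchors of all 3 cell types. They overlapped a fiber anchor in 33.2% (32.3 to 34.1) of cases, the share that made the group, an epithelium anchor in 34.4% (33.5 to 35.3) and an ES cell anchor in 30.7% (29.8 to 31.6). The peaks of the group itself overlapped an epithelium anchor in 74.8% and an ES cell anchor in 59.1% of cases. For shared distal peaks at fiber anchors these shares were 74.5% and 62.7%. Shared distal peaks overlapped fiber anchors more often, in 38.3% (37.4 to 39.2), and this order was found on all 19 chromosomes.

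Within bands of similar fold enrichment that order turned in 5 of 6 bands, with intervals apart in 2 of them. The epithelium peak calls and the overlap with fiber anchors both entered the rule, so these shares describe how the group was made. Between folds of 5 and 6, 30.2% (28.7 to 31.9) of fiber-only and 25.8% (23.8 to 28.0) of shared distal peaks were at a fiber anchor. Between 6 and 7 the shares were 38.1% (36.0 to 40.3) and 32.8% (30.7 to 35). Above a fold of 10 they were 51.9% (45.2 to 58.6) and 53.5% (51.4 to 55.5), with overlapping intervals. The share of members with a loop in the epithelium list was 65.7% (62.2 to 69.1) up to a fold of 5 and 77.8% (69.1 to 84.6) above 10. Thus even the 108 strongest fiber-only distal anchor peaks mostly had a loop listed in epithelium. The rise was uneven, with 64.0% between 5 and 6, 72.9% between 7 and 8 and 69.3% between 8 and 10. Shared distal anchor peaks gave 67.1% (60.5 to 73.1) up to 5 and 69.1% (66.5 to 71.7) above 10, and the intervals overlapped those of members.

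**Figure D4:**
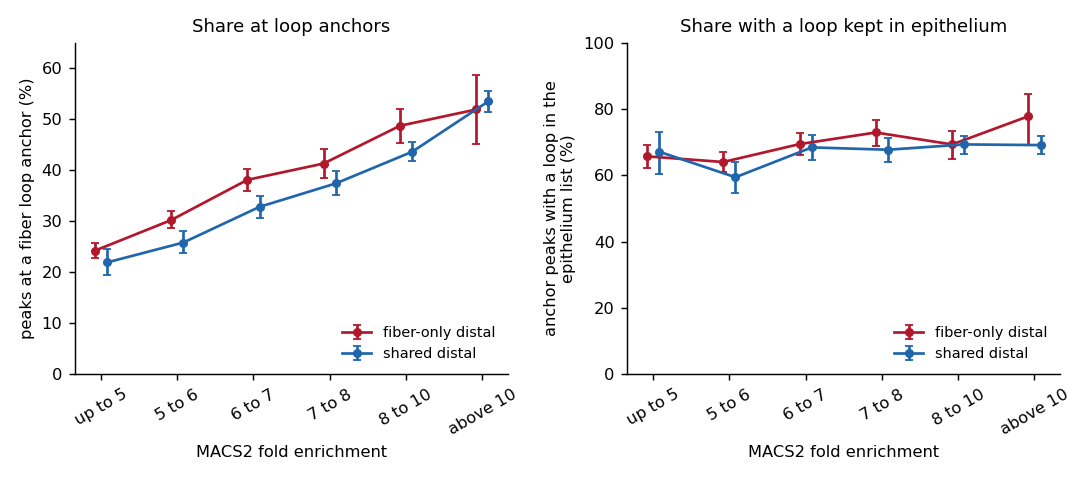
Left, percent of distal peaks at a fiber loop anchor (y axis) by fold enrichment (x axis); right, percent of anchor peaks with a loop in the epithelium list; points are shares with 95% Wilson intervals. The share at anchors climbs from 24.2% to 51.9% for fiber-only peaks and from 21.9% to 53.5% for shared peaks.

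The peaks of the group usually faced another CTCF peak. At the other anchor of at least 1 of their loops, 73.0% (71.5 to 74.4) had a fiber CTCF peak of any kind, against 73.3% (72.0 to 74.6) of shared distal peaks at anchors. An epithelium peak was at the other anchor for 50.1% of members. In 667 of the 3708 loops, fiber-only distal peaks lay at both anchors. The group was spread evenly over the loop sides, with 1606 peaks at left anchors only, 1658 at right anchors only and 166 at both. Its loops had a median size of 300 kb (290 to 315) and the median ratio of observed to expected contacts was 2.81.

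Most members, 2379, belonged to a single loop, 807 to 2 loops and 244 to 3 or more, up to 5. Of 15004 fiber anchors, 4375 held a member and 371 of these held 2 or more. Of the 4 peaks with 5 loops, that at chr15:61983345-61983562, fold 5.34, lay 1.91 kb from Myc, a driver of cell growth, with loops of 825 to 1750 kb, 3 of them in the epithelium list and 0 in the ES cell list. The peak at chr7:70346247-70346468, fold 6.11, lay 5.62 kb from Nr2f2, an orphan nuclear receptor, with 5 loops of 525 to 1750 kb, again 3 in the epithelium list and 0 in the ES cell list. The others, at chr17:9168467-9168795 with fold 8.26 and chr17:9169455-9169656 with fold 4.49, lay 160 kb or more from a coding gene end. They were neighbours in the same anchors and so had the same 5 loops of 590 to 2825 kb. Of these loops, 2 were in the epithelium list and 1 in the ES cell list. These peaks were named after their loop numbers were seen.

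TADs, the self-contacting domains that Arrowhead called, were examined next. A fiber TAD border was within 25 kb of 45.9% (44.3 to 47.6) of the group, 47.5% (46.0 to 49.0) of shared distal peaks at anchors and 21.1% (20.2 to 22.1) of fiber-only distal peaks away from anchors. The intervals of the anchor groups overlapped for fiber borders. Loop anchors often coincide with domain borders, so the gap to peaks away from anchors partly restates the rule. Borders of the epithelium TAD list, which held 1789 TADs against 2628 in fiber, were within 25 kb of 33.3% (31.7 to 34.9) of the group and of 36.8% (35.4 to 38.3) of shared peaks at anchors. For ES cell borders the shares were 48.2% (46.6 to 49.9) and 52.0% (50.5 to 53.5). Both of these shares were lower for the group, with intervals apart, and the difference itself was not tested.

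**Figure D5:**
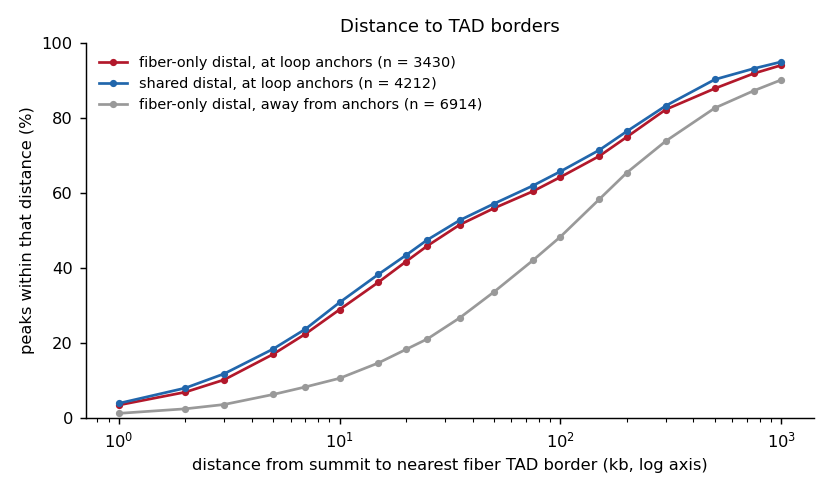
Distance from the peak summit to the nearest fiber TAD border in kb on a log axis (x axis) against the cumulative percent of each group (y axis). At 25 kb the curve stands at 45.9% for fiber-only distal anchor peaks, 47.5% for shared anchor peaks and 21.1% for fiber-only peaks away from anchors.

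By position, 45.9% (44.3 to 47.6) of the group had the summit inside a protein-coding gene body, 8.4% inside a lncRNA gene only and 45.7% outside both. Exons and introns were not separated, since the gene table gives only gene starts and ends. Fiber-only distal peaks away from anchors were inside coding genes in 51.2% (50.1 to 52.4) of cases. The median distance to a coding gene end was 16.8 kb, and 14.6% of members were more than 100 kb from any. An end of a lncRNA gene was within 500 bp of 101 members. At the limits of the rule, the members nearest to a gene end lay 501 bp from Mettl6, 507 bp from Ablim1 and 519 bp from Wnt7a, while peaks at 500 bp from Mrpl1 and 494 bp from Dnase1l3 were left out. The smallest gaps between a member and an epithelium peak were 22, 88 and 95 bp, and the smallest overlap of a shared anchor peak was 56 bp. The smallest overlap of a member with its anchor was 2 bp, and the nearest fiber-only distal peak left out lay 4 bp from an anchor.

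Listed lens genes were then examined for fiber-only distal anchor peaks inside them, or for loops that ran from such a peak to an end of the gene. Among 20665 coding genes, 6.56% held a member and 7.77% had an end at the other anchor of a member's loop. Gene length and local gene density were not taken into account, so the counts of the lists are descriptions. A gene end within an anchor 5 to 25 kb wide is a contact of that anchor and not of the gene alone.

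Of 42 lens transcription factor genes, 9 held a member and 12 had an end at the other anchor. Of their 16 loops, 13 were in the epithelium list, or 81.2% (57.0 to 93.4), and 3 in the ES cell list, or 18.8% (6.59 to 43.0). Over all coding genes the shares of 1296 such loops were 56.0% (53.3 to 58.7) and 35.6% (33.1 to 38.3), and the intervals of the list overlapped both. Pax6, which directs eye formation, was joined by a 50 kb loop to a peak of fold 6.05 at chr2:105616391-105616726, with 86 contacts at 2.34 times the expected number. That loop was in all 3 lists, although its peak anchor held no epithelium peak. Maf, an activator of crystallin genes, was reached from peaks of fold 7.93 and 5.68 through loops of 440 and 650 kb, both in the epithelium list and neither in the ES cell list. Gata3, needed for fiber differentiation, held a peak of fold 8.10 and was joined by a 130 kb loop to another of fold 9.47, again listed in epithelium and not in ES cells. Pitx3, a lens homeobox gene, had a 115 kb loop found in all 3 lists and a 170 kb loop found in fiber alone. The loops of Six3 (500 kb), Eya1 (325 kb), Etv5 (130 kb) and Zeb2 (1325 kb) were all in the epithelium list and absent from the ES cell list. Runx1 held a peak of fold 8.01 in its gene body.

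Among genes named for crystallins, 0 of 19 held a member and 2 had an end at the other anchor. Crygs, which encodes gamma-S crystallin, a structural protein of the lens, was reached from peaks of fold 4.28 and 4.37 about 500 kb away, and Crym, whose product is an enzyme that binds thyroid hormone, by an 80.0 kb loop from a peak of fold 6.27. Both loops were in all 3 lists.

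Of 32 fiber membrane and cytoskeleton genes, 5 held a member and 6 had an end at the other anchor. Bfsp1, which encodes the beaded filament protein filensin, held a peak of fold 8.15 at chr2:143867356-143867710, 41.0 kb from a gene end, with 2 loops of which 1 was in the epithelium list. Gja1, the gap junction gene for connexin 43, was joined over 810 kb to a peak of fold 7.40 in a loop shared with epithelium, with 50 contacts at 4.18 times the expected number. Arvcf, a catenin gene, held peaks of fold 7.09 and 5.10 that were joined by the same 55.0 kb loop, listed in epithelium and not in ES cells. Ncam1, an adhesion gene, was reached by loops of 825 and 375 kb that were in neither list, as was the 1075 kb loop to Ank2, the gene for ankyrin-B. The peaks of these 3 loops had folds of 9.66, 5.15 and 7.48. Ncam1 also held a peak of fold 5.19 in its gene body, whose 650 kb loop was in the epithelium list.

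In the signaling lists, receptors, ligands and inhibitors were all represented. For FGF and ERK genes, 5 of 28 held a member and 6 had an end at the other anchor. Fgfr2, a receptor of fiber-inducing FGF, held a weak peak of fold 3.28, and a 100 kb loop shared with epithelium joined its 2 ends. Fgfr1 was reached over 240 and 300 kb from 1 peak of fold 6.68, both loops being in the epithelium list. Spred1, an inhibitor of the ERK cascade, had 2 loops of 290 and 200 kb, the first in all 3 lists and the second in fiber alone. Gab1, an adaptor of receptor signaling, held 2 peaks of fold 4.40 and 4.72 at a 110 kb loop found in fiber alone.

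For BMP and TGF-beta genes the counts were 5 and 6 of 30. Smad6, an inhibitor of BMP signaling, held 2 peaks of fold 5.22 and 8.94 at a 130 kb loop, and Smad3, a mediator of TGF-beta, held 1 of fold 4.37 at a 100 kb loop. Both loops were in neither of the other lists. The ligand gene Bmp4 and the receptor gene Bmpr1b had loops of 390 and 2325 kb that the epithelium list also held.

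For Wnt and Notch genes the counts were 8 and 4 of 31. Hes1, a repressor activated by Notch, held a peak of fold 4.52, and 3 other peaks of fold 5.63, 6.27 and 5.50 were joined to it by loops of 425, 60 and 120 kb. These 3 loops were in neither the epithelium nor the ES cell list, while a further loop of the peak in Hes1 was in both, and none of the 3 peaks had an epithelium peak in its anchor. Their ratios of observed to expected contacts were low, at 2.28, 2.02 and 2.09. Wnt7a had loops of 250 and 125 kb in all 3 lists, the shorter with a ratio of 6.41. Axin2, a Wnt target and inhibitor, held a peak of fold 8.46 with a 250 kb loop shared with epithelium.

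In the smaller lists, 2 of the 22 organelle loss and autophagy genes that the gene table holds contained a member and 2 had an end at the other anchor. Atg5 and Atg7, which act in autophagosome formation, held peaks of fold up to 8.20 and 7.06. Among cell cycle exit genes the counts were 3 and 3 of 24. Cdkn1a, the gene for the inhibitor p21, was joined over 50 kb to a peak of fold 4.94 in a loop of all 3 lists, and Rb1 held a peak of fold 6.42. Among pluripotency genes, 1 of 18 held a member and 2 had an end at the other anchor. The member was in Esrrb, a nuclear receptor gene of stem cells, with a fold of 7.29 and a loop listed in epithelium and not in ES cells.

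Of the loops of the group that were missing from the epithelium list, those described are the 10 with the highest ratio of observed to expected contacts, taken from those with at least 20 contacts. Their ratios were 5.17 to 5.83 on 20 to 38 contacts, so each rested on few contacts. The first spanned 1015 kb on chromosome 3 to Rsrc1, a splicing factor gene, with 27 contacts, a ratio of 5.83 and a member of fold 4.46. It was in the ES cell list, as were 4 of the 10 in all. A 240 kb loop on chromosome 9 had members of fold 7.28 and 5.06 at its anchors, the second at Ttc12, and was in neither other list. Another joined Tyw1 and Auts2 over 1160 kb on chromosome 5 with 21 contacts. In 2 of the 10 loops neither anchor held an epithelium peak.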

How the data were processed

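Hi-C was done with the Arima-HiC kit. The authors aligned reads with BWA to mm10, made maps with Juicer, merged both replicates, and called loops with HiCCUPS (juicer_tools 2.13.06 per the file headers) and TADs with Arrowhead. Of the values deposited with each loop, the observed contacts are raw counts, expected contacts are a signal from the donut around the loop, and the FDR is a q-value of the authors' run. The authors called CTCF peaks with MACS2, and each deposited peak has a fold enrichment, a score, and the −log10 of its p-value and q-value. Mapping filters limit peaks and loops to mappable sequence, and loops called at 25 kb place a contact less finely than those at 5 kb.

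From these lists, peaks were classed by overlap of at least 1 bp, by the 500 bp distance to gene ends in a RefSeq table of GRCm38.p6, the build that mm10 denotes, and by loop anchors. Loops were shared if both midpoints were within 10 kb. Promoter windows were scanned with a matrix of 19 positions learned by expectation maximisation from the most over-represented run of 8 bases. Python 3.11.15, numpy 2.4.6, pandas 2.3.3, scipy 1.17.1 and matplotlib 3.10.9 were used. No test across samples was possible. Computations were tested on simulated data.

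Members and gene lists were chosen with earlier results of these data known. Genes were named if in the lists and holding a member or having an end at the other anchor (examples only), and the 10 strongest members and the 10 strongest loops not in the epithelium list were named. Alternatives changed the gene distance, peak sharing, anchors, peak strength, loop tolerance, borders and motif score. The sex chromosomes were left out, and some genes of the lists are counted but not reported here by name.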

Additional observations from a re-analysis of the deposited data

How the results depend on the processing

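No paired analysis was possible because no result comes from a test across replicates. Of 52 alternative values, 26 stayed within the interval of the reported value, or within 1.5 times a count, and 26 moved. The group shrank to 2048 peaks when only loops with 5 or 10 kb anchors were used and to 1373 among the stronger 50% of the fiber list. The share of members with a loop in the epithelium list was 77.3% with 5 or 10 kb anchors, 71.2% with anchors widened by 5 kb, 71.4% among stronger peaks, 82.0% with a tolerance of 25 kb and 57.3% when anchors had to overlap. It differed from that of shared anchor peaks by -0.8 to 2.4 percentage points over all 10 alternatives. For the ES cell list the share was 62.0% with 5 or 10 kb anchors, 51.5% among stronger peaks, 59.8% with a tolerance of 25 kb and 38.3% with overlapping anchors. A peak at the other anchor was found for 64.2% of members with 5 or 10 kb anchors, and for 50.1% when epithelium peaks were asked for. A shared peak in the same anchor was found for 18.1% with no epithelium peak within 1 kb, 13.1% with narrower anchors and 9.98% among stronger peaks. The median loop size was 200 kb with narrower anchors and 325 kb among stronger peaks, where the median fold was 6.16 and 7.59. Among stronger peaks 43.9% were inside coding genes. The share near a TAD border was 52.7% with narrower anchors, 47.8% among stronger peaks, 28.9% within 10 kb and 33.3% for epithelium borders. The stricter motif score matched 14.0% of the 57 member windows, against 0.823% of all windows. Lists without read depth, merged replicates and a single ChIP sample per cell type limit all of these values.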

Other observations

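Loops whose anchors held both ends of the same coding gene were rare. They made up 17 of 3708 loops with a fiber-only distal anchor peak, or 0.458% (0.286 to 0.733). The share was 0.659% (0.447 to 0.971) of 3794 loops without such a peak, and the intervals overlapped. Of the 17, 10 were in the epithelium list and 5 in the ES cell list, and the loop over Fgfr2 was the only one at a gene of the lists. Crowded anchors were few as well, with at most 3 members in 1 anchor, for example at chr12:32900001-32925000 with folds of 4.99, 4.53 and 7.59 and a 200 kb loop in the epithelium list, and at chr2:33475001-33500000 with folds of 8.49, 5.00 and 4.79 and a 150 kb loop that was not.

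Among the 57 members in promoter windows, a loop in the epithelium list was present for 10 of 25 with a CTCF motif, or 40% (23.4 to 59.3), and for 24 of 32 without, or 75% (57.9 to 86.7). The share was lower with a motif, and the intervals overlapped only from 57.9 to 59.3. The comparison was made after the values were seen, and no test was run. Peaks of the epithelium list alone, which could not be members, overlapped a fiber anchor in 14.4% (13.4 to 15.5) and an epithelium anchor in 14.5% (13.4 to 15.6) of 4166 distal cases, at a median fold of 5.07 in their own list.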
